A study of Rattus norvegicus with 18 samples.

Results

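Far2, Mapk4, Zdhhc2, Dusp18, Ist1, Zfp612 and Frmd4a are 7 of the 22093 genes measured in the nucleus accumbens of rats from a methamphetamine self-administration experiment. They were picked because their signals on the shock-resistant arrays stood apart from those on the shock-sensitive arrays, so that difference is described here and not tested. Each gene was found by its exact symbol in the platform annotation, and of the 2 features for Frmd4a the one with the higher mean was used. The study hybridised 18 arrays, 1 per male Sprague-Dawley rat, in 3 groups of 6 labelled control, shock resistant and shock sensitive. In this procedure footshock is the adverse consequence of taking methamphetamine: resistant animals go on taking it and sensitive animals cut their intake. The labels describe all samples alike as from methamphetamine self-administration with footshock. After their group labels, the resistant and sensitive rats are called the shock groups here. That name does not say whether the controls received methamphetamine or footshock. Age, and how the control rats were treated, are not stated in the sources used here, and nothing there describes a transgene or a further treatment. Replicates are separate rats selected on RNA quality, per the series' design text.

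The nucleus accumbens is the ventral striatum, where dopamine and glutamate inputs meet on medium spiny projection neurons and where drug reward is linked to action. The 7 genes come from different pathways. They encode enzymes that act on lipids (Far2), kinase signalling (Mapk4, Dusp18) and protein lipidation (Zdhhc2), a membrane-remodelling factor (Ist1), a zinc finger protein (Zfp612) and a polarity scaffold (Frmd4a). Protein palmitoylation holds receptors and scaffolds at the synapse, and reversible phosphorylation by MAP kinases and their phosphatases carries signals from the synapse to the nucleus.

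Array medians lay between 5.43 and 5.56 on the log2 scale, and any pair of arrays had a correlation of 0.993 to 0.998 over the features. Signal from medium spiny neurons was looked for with 12 markers, which does not settle the labelled region. All 11 measured ones lay above 6.37, the median of 1153 negative control features, as did all 7 genes, whereas 47.6% of all genes lay below it. Control arrays averaged 13.24 ± 0.56 over these markers, the resistant group 13.53 ± 0.23 and the sensitive group 13.02 ± 0.59 (log2, SD, n = 6 each). Shock-sensitive replicate 4 at 12.01 and control replicate 1 at 12.15 were the lowest arrays, and the next stood at 12.85. In shock-resistant replicate 4 the 7 choroid plexus markers averaged 8.95, against 5.85 or less on every other array. Of those 7 markers, 1 lay above the negative control median. In bulk tissue fewer cells of a type and less RNA per cell cannot be told apart. With 6 arrays a group, their number sets the precision.

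Ist1 and Zfp612 lie on the same chromosome, 19, and were the pair of genes whose signals moved most closely together. Their promoter sequences are shown because both genes stood lower on the same arrays. They are the 250 bases before the annotated start in RefSeq's table for assembly GRCr8. Capitals mark matches to short promoter motifs or to their reverse complements. The marked motifs are the GC box (GGGCGG), the CCAAT box (CCAAT) and the core of the cAMP response element (TGACG).
Ist1, chr19:54580492-54580741, minus strand: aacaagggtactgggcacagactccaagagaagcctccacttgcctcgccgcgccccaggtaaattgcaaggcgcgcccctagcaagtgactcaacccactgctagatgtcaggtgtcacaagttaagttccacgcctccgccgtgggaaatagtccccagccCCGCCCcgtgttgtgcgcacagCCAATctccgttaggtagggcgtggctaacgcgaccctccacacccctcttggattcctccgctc
Zfp612, chr19:54963193-54963442, plus strand: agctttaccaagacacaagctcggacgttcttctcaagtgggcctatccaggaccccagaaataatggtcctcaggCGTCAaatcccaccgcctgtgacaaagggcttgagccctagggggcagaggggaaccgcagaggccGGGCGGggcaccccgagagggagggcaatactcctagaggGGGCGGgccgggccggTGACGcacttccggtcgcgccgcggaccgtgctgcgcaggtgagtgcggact
The Ist1 window held 1 GC box and 1 CCAAT box. The Zfp612 window held 2 GC boxes and 2 such cores. Among 33469 promoters of the same length, 30.5% held a GC box, 34.0% a CCAAT box and 18.2% the core on either strand. The full cAMP response element (TGACGTCA, which contains the core, in 1.59% of promoters), the E-box (CACGTG, 5.59%) and the TATA box (TATAAA or its reverse complement, 12.9%) occurred in 0 of the 6 members with an entry, namely all but Zdhhc2. A GC box was found in 3 of these 6, Dusp18 being the other. GC content ran from 49.6% in Frmd4a to 65.2% in Zfp612, beside a median of 51.2% for all promoters. These matches describe letters in the windows and no binding was measured.

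Far2, Mapk4, Zdhhc2 and Dusp18 read higher in shock-resistant than in shock-sensitive rats, and Ist1, Zfp612 and Frmd4a read lower. The mean differences ran from 1.21-fold for Zdhhc2 to 1.93-fold for Mapk4. Mapk4, Ist1 and Zfp612 were the 3 of 7 whose groups did not overlap, where 0.213% of all genes showed no overlap (0.131% with the resistant arrays higher, as Mapk4, and 0.0815% with them lower). Across all genes 0 passed limma's Benjamini-Hochberg adjusted threshold of 0.05 between these groups (smallest adjusted p = 0.0852), and 1415, or 6.4%, lay under 0.05 before adjustment (2.63% higher and 3.77% lower in resistant rats). These figures describe the values by which the genes were chosen.

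Far2 encodes a fatty acyl-CoA reductase, which makes fatty alcohols used in ether lipids and wax esters. Its lowest, median and highest log2 signals were 11.08, 11.56 and 11.93 in resistant rats, 10.54, 10.91 and 11.13 in sensitive rats, and 10.67, 10.82 and 11.05 in controls. Only shock-resistant replicate 6 fell within the range of the sensitive arrays, and the sensitive and control ranges overlapped. The mean was 11.55 ± 0.32, 10.88 ± 0.21 and 10.85 ± 0.15 in the same order (SD, n = 6 each). Shock-resistant rats thus stood 1.60-fold above sensitive rats, a log2 difference of 0.67 ± 0.13 (SE). In shock-resistant replicate 4, the array with the choroid plexus signal, Far2 read 11.86. Without that array the log2 difference was 0.61. Dusp18 and Frmd4a had their highest resistant signal on that array, 9.61 and 9.91. Without it their differences between resistant and sensitive rats were 0.27 and −0.36, against 0.30 and −0.32 with it. Beyond these values and the correlations given below, the part of the choroid plexus signal in these genes was not tested.

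Mapk4 encodes ERK4, an atypical MAP kinase that PAK kinases phosphorylate and that binds the kinase MK5. It had the largest difference of the 7 genes and the widest spread. From lowest through median to highest, the signals were 10.12, 10.68 and 11.1 in resistant rats, 9.15, 9.88 and 10.07 in sensitive rats, and 9.19, 10.18 and 10.66 in controls. The shock groups were separated by 0.053. The control arrays spanned most of the sensitive range and the lower part of the resistant range, with 3 resistant arrays above every control. Means were 10.67 ± 0.39, 9.72 ± 0.35 and 10.07 ± 0.50 (SD, n = 6 each). The log2 difference between the shock groups was 0.95 ± 0.22 (SE).

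Zdhhc2 encodes a palmitoyltransferase that acts on PSD-95 and the anchoring protein AKAP5 at excitatory synapses. Its lowest, median and highest signals were 11.97, 12.18 and 12.24 in resistant rats, 11.70, 11.89 and 11.999 in sensitive rats, and 11.81, 11.97 and 12.04 in controls. Shock-resistant replicate 6 again lay among the other arrays, and the other 5 stood above every sensitive and every control array. The log2 difference was 0.27 ± 0.058 (SE), from 12.15 ± 0.10 against 11.88 ± 0.12 (SD, n = 6 each), with controls at 11.96 ± 0.083.

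Dusp18 encodes an atypical dual-specificity phosphatase, a class without the MAP kinase docking domain of the classical members. In order of lowest, median and highest, Dusp18 read 9.31, 9.42 and 9.61 in resistant rats, 8.92, 9.12 and 9.42 in sensitive rats, and 9.01, 9.21 and 9.24 in controls. The sensitive array at 9.42, replicate 1, reached into the resistant range, and no control array did. Means were 9.44 ± 0.098, 9.14 ± 0.17 and 9.17 ± 0.093 (SD, n = 6 each), a log2 difference of 0.30 ± 0.071 (SE) between the shock groups. The same deposited value, 9.24, stood for 4 arrays, 3 of them controls. A value shared by 2 or more arrays occurred in 60.9% of all genes and in 4 of the 7. In Far2, Zdhhc2 and Frmd4a no value stood for more than 2 arrays. How such repeats arose is not stated in the sources used here.

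Ist1 encodes a relative of the ESCRT-III proteins, which recruits the ATPase VPS4 during membrane scission. Its lowest, median and highest signals were 9.60, 9.65 and 9.80 in resistant rats, 9.96, 10.13 and 10.33 in sensitive rats, and 9.51, 9.60 and 10.19 in controls. All sensitive arrays stood above all resistant arrays with a gap of 0.16, and 5 of 6 controls lay with or below the resistant arrays. The exception was control replicate 3, at 10.19, the fourth highest of the 18 arrays. The log2 difference of resistant from sensitive rats was −0.45 ± 0.097 (SE), from 9.68 ± 0.071 against 10.13 ± 0.15 (SD, n = 6 each), with controls at 9.69 ± 0.26.

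Zfp612 encodes a zinc finger protein of the kind that binds DNA. The arrays gave a lowest, median and highest signal of 8.64, 8.94 and 9.14 in resistant rats, 9.24, 9.44 and 9.59 in sensitive rats, and 8.96, 9.08 and 9.47 in controls. Again the shock groups did not overlap, and again control replicate 3, at 9.47, was the single control among the sensitive arrays. The log2 difference was −0.48 ± 0.09 (SE), from 8.94 ± 0.18 against 9.43 ± 0.12 (SD, n = 6 each), with controls at 9.13 ± 0.18.

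Frmd4a encodes a FERM-domain scaffold that joins the polarity protein PAR-3 to cytohesin and ARF6 in epithelial cells. Its lowest, median and highest signals were 9.56, 9.71 and 9.91 in resistant rats, 9.88, 10.05 and 10.29 in sensitive rats, and 9.80, 9.90 and 9.96 in controls. Sensitive replicates 3, 4 and 5 stood above 10.18, and the other 3 sensitive arrays read no higher than the highest resistant array. The log2 difference was −0.32 ± 0.079 (SE), from 9.74 ± 0.14 against 10.06 ± 0.19 (SD, n = 6 each). Its second feature lay below the negative control median on all 18 arrays (4.66 to 5.17), and averaging both features reduced the difference to −0.14.

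**Figure D1:**
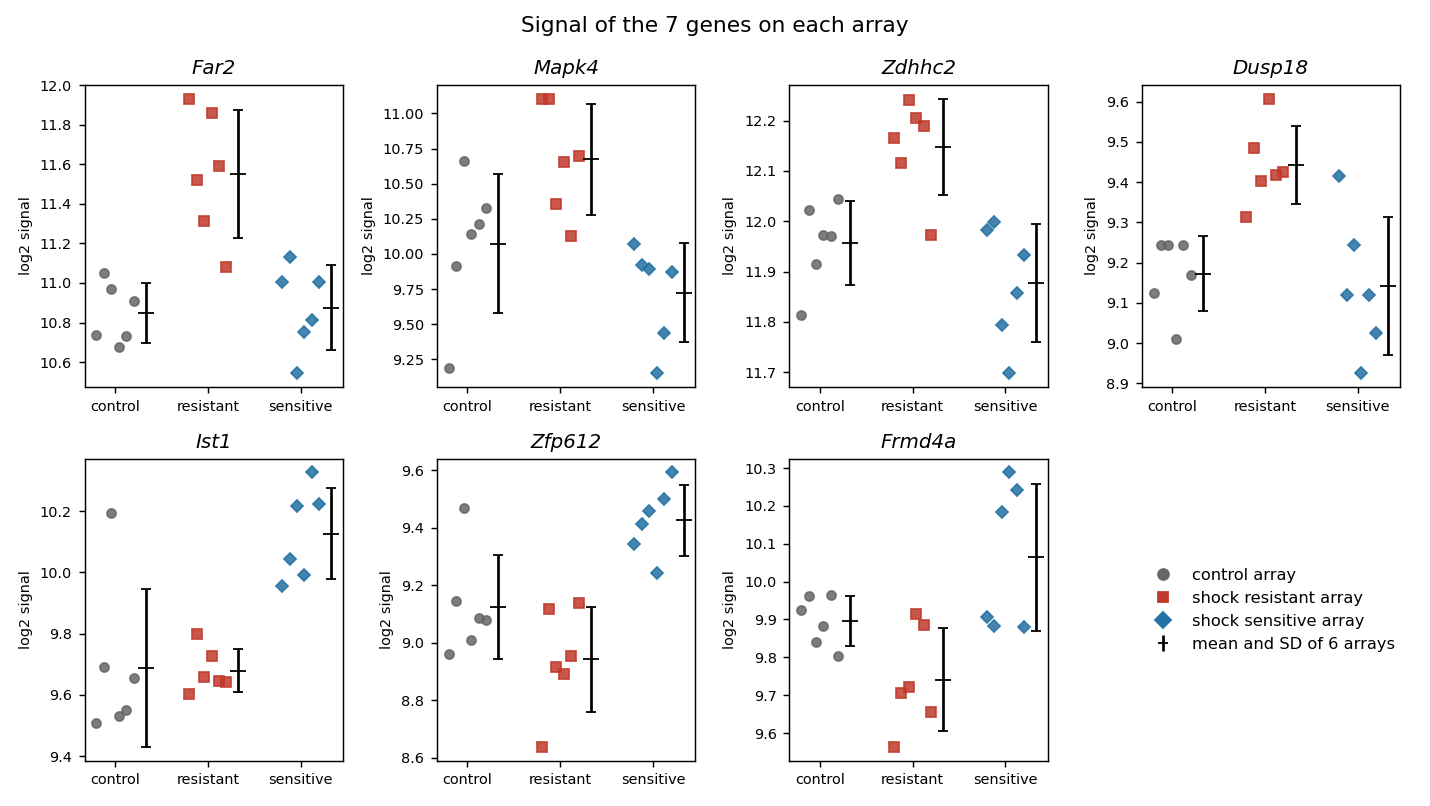
Log2 signal of the 7 genes on each of the 18 arrays (points, replicates in order from left to right within a group), with the mean and SD of each group of 6 beside them. Each panel has its own y axis, which does not start at 0. Mapk4, Ist1 and Zfp612 show no overlap between shock-resistant and shock-sensitive arrays, and control replicate 3 lies among the sensitive arrays for Ist1 and Zfp612.

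The genes differed in where the controls lay, and since these comparisons share arrays with the one used for the choice, they are given without a test. For Far2 and Dusp18 the sensitive mean lay next to control, with log2 differences of 0.029 ± 0.13 and −0.031 ± 0.071 (SE), while the resistant mean stood above it by 0.70 ± 0.13 and 0.27 ± 0.071. These were the 2 of 7 genes with all 6 resistant arrays above every control, where 0.688% of all genes had no overlap (0.516% with the resistant arrays higher and 0.172% lower). For Ist1 the resistant mean lay next to control (−0.009 ± 0.097) and the sensitive mean stood above it by 0.44 ± 0.097. In the other 4 genes both groups differed from control by more than 1 SE, in opposite directions. Mapk4 differed by 0.60 ± 0.22 in resistant and −0.35 ± 0.22 in sensitive rats. Zdhhc2 differed by 0.19 ± 0.058 and −0.079 ± 0.058. Zfp612 differed by −0.18 ± 0.09 and 0.30 ± 0.09, and Frmd4a by −0.16 ± 0.079 and 0.17 ± 0.079. With the mean of its features, Frmd4a differed by −0.026 and 0.11. Between sensitive rats and controls 0 of 7 were free of overlap, where 0.38% of all genes were (0.344% with the sensitive arrays higher and 0.0362% lower).

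The control position rested in part on single arrays. For Mapk4 the log2 difference of sensitive rats from controls was −0.53 without control replicate 1 and −0.23 without control replicate 3, and that of resistant rats ran from 0.42 to 0.72 with those arrays left out. For Zdhhc2 that of sensitive rats was −0.043 without shock-sensitive replicate 4. Without control replicate 3 the sensitive rats stood 0.54 above controls for Ist1 and 0.37 for Zfp612, and the other 5 controls lay below every sensitive array for both genes. Resistant rats stood −0.11 from controls for Zfp612 without that array, and −0.12 without shock-resistant replicate 1. The small Ist1 difference between resistant rats and controls was positive in 4 of 27 alternatives, at most 0.092, without control replicate 3. The small differences of Far2 and Dusp18 between sensitive rats and controls also turned their sign with single arrays left out, with ranges of −0.022 to 0.096 and −0.086 to 0.012.

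**Figure D2:**
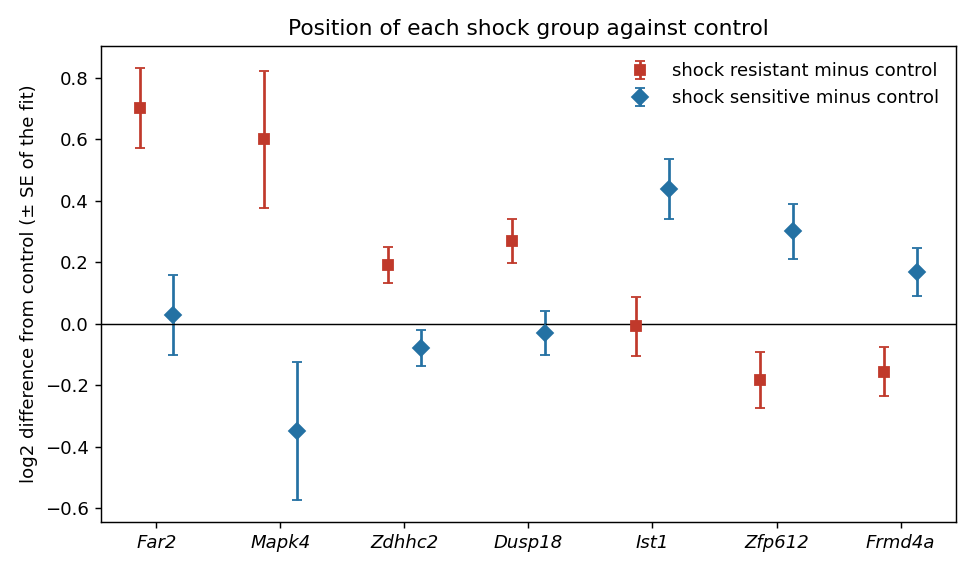
Log2 difference of shock-resistant (squares) and shock-sensitive (diamonds) rats from controls for each gene, with the SE of the fit over 18 arrays as bars. The differences in resistant rats run from −0.18 for Zfp612 to 0.70 for Far2, and those in sensitive rats from −0.35 for Mapk4 to 0.44 for Ist1. Both series of points use the same control arrays.

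The comparison left for a test was that of both shock groups together against controls, because with groups of equal size its estimate is uncorrelated with the difference between them. It asks whether a gene differed from controls in the pooled shock groups, whatever their response. By limma with Benjamini-Hochberg adjustment over 22093 genes 0 of 7 passed, where 0.00453% of all genes did. That was C1h16orf92 alone, named after its value was seen. Its means of 4.93 in controls, 5.22 in resistant and 5.15 in sensitive rats lay under the negative control median of 6.37. At an unadjusted p under 0.05 stood 2 of 7, Far2 and Ist1, where 9.76% of all genes did (7.15% higher, as both of these, and 2.61% lower). Far2 averaged 11.21 in the 12 arrays of the shock groups against 10.85 in controls, a log2 difference of 0.37 ± 0.11 (SE, limma adjusted p = 0.331), with 9 of 12 arrays above the control median. Ist1 averaged 9.90 against 9.69, a difference of 0.21 ± 0.084 (SE, limma adjusted p = 0.422), with 12 of 12 arrays above the control median. The lowest resistant array, at 9.6041, stood close to that median, 9.6025. By group, Ist1 differed from control by −0.009 ± 0.097 in resistant and 0.44 ± 0.097 in sensitive rats. The other 5 genes differed by 0.006 to 0.12 with limma adjusted p-values from 0.546 for Dusp18 to 0.99 for Frmd4a. The spread used in this test is the same estimate as in the comparison by which the genes were chosen.

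Ist1 and Zfp612 also moved together within the groups. Taking each array's deviation from its group mean, so that differences between groups play no part, Pearson's r over 18 arrays was 0.77 and Spearman's rho 0.74. Their permutation p-values, from 100000 permutations within groups, were 0.00027 and 0.00062, or 0.011 and 0.026 after Benjamini-Hochberg adjustment over 84 relations. These 84 are the 21 pairs of genes and 63 relations of a gene with a marker list. Without the 2 arrays whose Ist1 deviations lay farthest from their median, control replicate 3 and shock-sensitive replicate 5, r was 0.65. Without control replicate 3 alone it was 0.62. For both genes the 6 sensitive arrays and control replicate 3 formed the upper 7 arrays, and the other 11 reached no higher than 9.80 for Ist1 and 9.15 for Zfp612. No other pair passed. The next were Mapk4 with Frmd4a (r = −0.60 and rho = −0.65, permutation p adjusted to 0.14 and 0.11) and Far2 with Zdhhc2 (r = 0.60 and rho = 0.58, adjusted to 0.18 and 0.33).

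**Figure D3:**
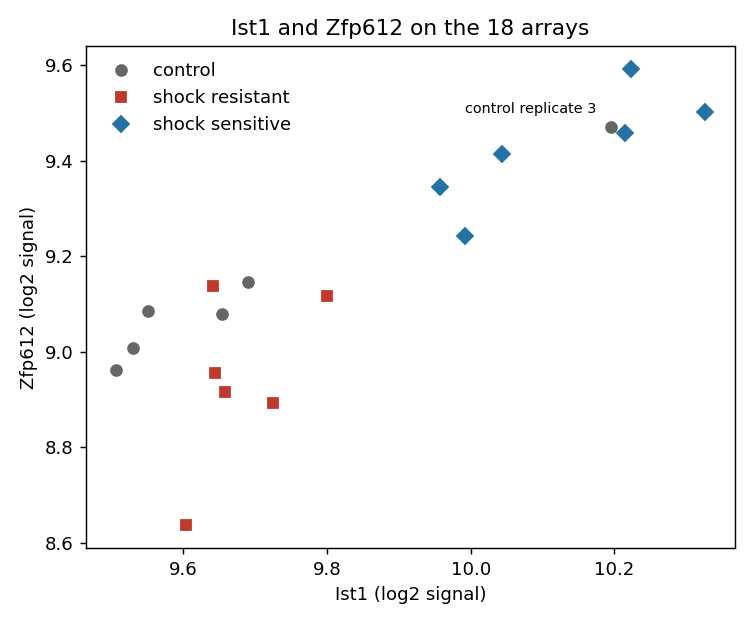
Log2 signal of Zfp612 (y axis) against Ist1 (x axis) on the 18 arrays, with 1 point per array and a symbol per group. The 6 shock-sensitive arrays and control replicate 3 lie at the upper right, above 9.80 for Ist1, and the other controls and the resistant arrays at the lower left.

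In the RefSeq gene order of assembly GRCr8, 7 protein-coding genes lie between Ist1 and Zfp612 on chromosome 19, of which 6 were measured. None of the 6 passed limma's adjusted threshold between resistant and sensitive rats, where 0 of all genes did. Phlpp2, a phosphatase of the AKT pathway, differed by −0.32 ± 0.13 (SE) and Marveld3, a tight junction gene with a signal under the negative control median, by 0.13 ± 0.057, both at an unadjusted p under 0.05. Ap1g1, a subunit of the clathrin adaptor AP-1, differed by −0.16 ± 0.08, and Zfp821, next to Ist1, by 0.051 ± 0.047. Tat and Chst4, also under the negative control median, differed by −0.017 and −0.026. Within groups the correlation with Ist1, given as a description over 18 arrays, ran from −0.34 for Chst4 to 0.52 for Marveld3 among these 6 genes, and was 0.77 for Zfp612. That of Marveld3 with Zfp612 was 0.50. Among the flanking genes measured on either side the correlation with Ist1 ran from −0.60 for Dhodh to 0.53 for Dhx38. That of Txnl4b, also a flanking gene, with Zfp612 was −0.67. Beyond Zfp612 lies Calb2, the gene of the calcium-binding protein calretinin, which differed by −1.09 ± 0.43 (SE, limma adjusted p = 0.753).

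**Figure D4:**
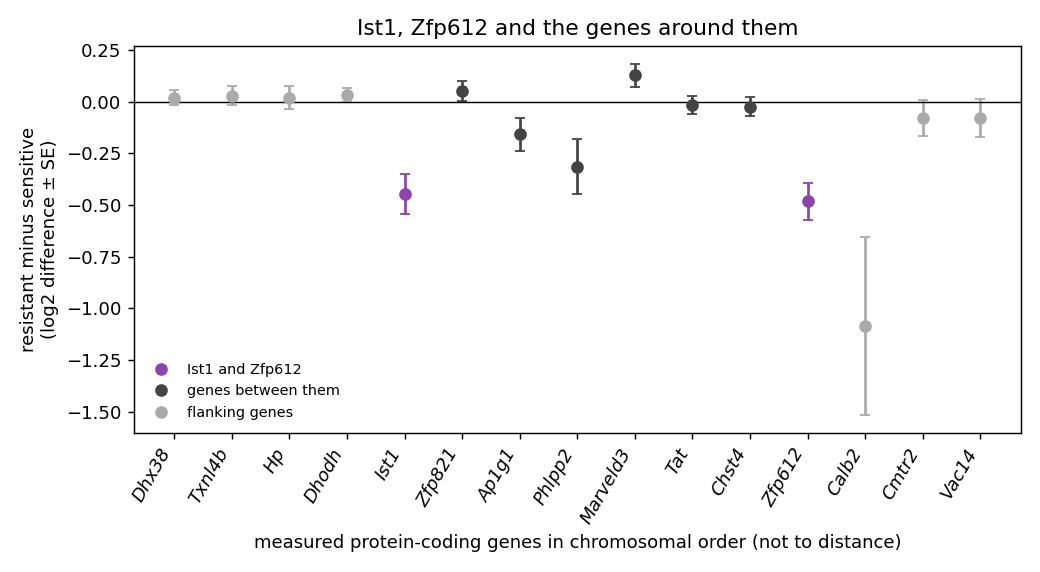
Log2 difference between shock-resistant and shock-sensitive rats, with the SE of the fit as bars, for measured protein-coding genes in their order along rat chromosome 19 (distance not drawn). Ist1 and Zfp612 stand at −0.45 and −0.48, and of the genes between them only Phlpp2 and Ap1g1 lie below −0.1.

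Around the 7 genes the 28 nearest measured neighbours, 2 on each side of a gene, were examined. Of these, 0 passed the adjusted threshold, where 0 of all genes did. At an unadjusted p under 0.05 stood 2 of the 28, Calb2 and Vps37a, or 7.14%, where 6.4% of all genes did. Vps37a, an ESCRT-I subunit that lies near Zdhhc2, differed by −0.18 ± 0.081 (SE). Far2 lies between Ccdc91 (−0.22 ± 0.11) and Ergic2 (0.009 ± 0.053), and Tmtc1 beyond Ergic2 differed by 0.26 ± 0.14. The nearest measured genes to Mapk4 were Mro (−0.025 ± 0.069) and, under the negative control median, Ska1 (0.032 ± 0.055). Zdhhc2 lies between Cnot7 (−0.023 ± 0.11) and Micu3 (0.014 ± 0.08). Dusp18 has C14h5orf52 (−0.024) and Osbp2 (0.25 ± 0.12) on one side and Slc35e4 (0.083 ± 0.083) on the other. Frmd4a lies between Prpf18 (−0.036 ± 0.047) and Fam107b (0.028 ± 0.047).

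Mapk4 followed the medium spiny neuron markers. Within groups its deviations from the mean gave Pearson's r of 0.84 with the marker mean, and Spearman's rho of 0.81, on 18 arrays (permutation p = 2e-05 each, adjusted over 84 relations to 0.0017 each). The relation was weaker, at r = 0.66, without shock-sensitive replicate 4 and control replicate 1, the arrays with the lowest marker means. With the marker mean as a covariate the log2 difference of Mapk4 between resistant and sensitive rats was 0.58, against 0.95 without it, and its differences from controls were 0.39 in resistant and −0.19 in sensitive rats. For Zdhhc2 r was 0.63 and rho 0.41 (permutation p adjusted to 0.18 and 0.61), and r was 0.19 without the same arrays. Its difference with the covariate was 0.21. Far2, Dusp18 and Frmd4a gave r = 0.41, 0.50 and −0.545, none past the adjusted threshold, and differences of 0.57, 0.24 and −0.24 with the covariate. Ist1 and Zfp612 gave r = 0.27 and 0.26 and rho = −0.013 and 0.096. Without shock-sensitive replicate 4 and control replicate 1 their r was −0.078 and −0.23. The differences of Ist1 and Zfp612 were −0.50 and −0.53 with the covariate. Of the 11 measured medium spiny neuron markers, 10 stood higher in resistant than in sensitive rats. Beyond these values, the part of the marker difference in the members' differences was not tested.

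**Figure D5:**
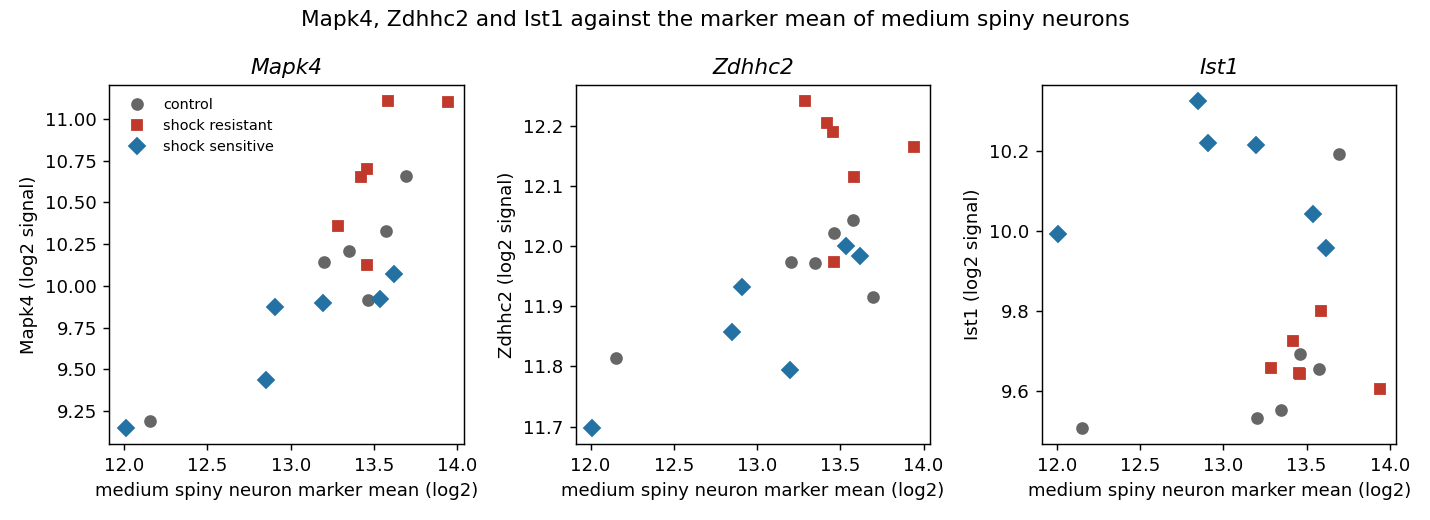
Log2 signal of Mapk4, Zdhhc2 and Ist1 (y axes) against the mean log2 signal of 11 medium spiny neuron markers (x axes), with 1 point per array. Mapk4 follows the marker mean within groups (r = 0.84). The r of Ist1 with it is 0.27, and −0.078 without shock-sensitive replicate 4 and control replicate 1.

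Markers of other cells showed weaker relations. Frmd4a gave r = 0.585 with 7 astrocyte markers and 0.47 each with oligodendrocyte precursor and microglia markers. Mapk4 gave −0.53 with the oligodendrocyte precursor markers, and none of these passed the adjusted threshold. With the choroid plexus markers r was 0.44 for Frmd4a, 0.34 for Dusp18 and 0.27 for Far2 (permutation p adjusted to 0.18, 0.65 and 0.83). The other members gave −0.16 to 0.06. Without shock-resistant replicates 4 and 2 those of Frmd4a, Dusp18 and Far2 were 0.49, −0.077 and −0.42. The larger differences between the shock groups were those of 4 red cell markers, which averaged 9.97 ± 0.45 in resistant and 10.44 ± 0.52 in sensitive rats, and of 5 cortical neuron markers, at 6.74 ± 0.24 and 7.21 ± 0.59 (SD, n = 6 each). Of these, 0 of 4 and 0 of 5 stood higher in resistant rats. Of the 5 cortical neuron markers, 3 lay at or above the negative control median. Their mean was highest in control replicate 4, at 8.205, and next in shock-sensitive replicate 6, at 8.11. The microglia list averaged 8.58 ± 0.13 in resistant and 8.74 ± 0.16 in sensitive rats, and the astrocyte list 11.09 ± 0.11 and 11.19 ± 0.12 (SD, n = 6 each). Ist1 gave r = 0.70 with 4 endothelial markers (rho = 0.39, permutation p adjusted to 0.37 and 0.61). Control replicate 3 had the highest endothelial mean, 9.52 against 9.21 or less elsewhere, and without it r was 0.17. The part of these cells in the differences was not tested.

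None of the other genes of the same families passed the test between the groups, where 0 of all 22093 genes did. Of 172 measured genes in 8 lists around the 7 members, 0 passed limma's adjusted threshold between resistant and sensitive rats (smallest adjusted p = 0.753). At an unadjusted p under 0.05 stood 18, 7 higher and 11 lower in resistant rats, or 10.5%, where 6.4% of all genes did. The median log2 difference was −0.013, beside −0.0026 over all genes.

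In the list of fatty alcohol, ether lipid and acyl-CoA enzymes, 2 of 25 stood lower at the unadjusted level and 0 higher. They were Aldh3a2, which oxidises fatty aldehydes (−0.24 ± 0.085, SE), and Acsl3, an acyl-CoA synthetase (−0.14 ± 0.059). Of 13 MAP kinases and partners 0 did so, and Pak1, a kinase upstream of ERK4, differed by −0.25 ± 0.12 and Pdpk1 by 0.15 ± 0.079. Among 27 other dual-specificity phosphatases only Dusp14 did, 0.26 ± 0.12 higher, and Dusp15 differed by −0.18 ± 0.089.

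In the palmitoylation list 1 of 31 stood higher and 4 lower, among them the depalmitoylating enzyme gene Abhd10 (−0.39 ± 0.15, SE) and Zdhhc20, another palmitoyltransferase (−0.19 ± 0.076). Of the 8 genes in the list of ZDHHC2 substrates, 2 stood higher. Akap5, a postsynaptic kinase anchor, read 12.99 ± 0.21 in resistant and 12.40 ± 0.64 in sensitive rats (SD, n = 6 each, limma adjusted p = 0.755). Dlg4, which encodes PSD-95, read 11.49 ± 0.11 and 11.27 ± 0.21 (adjusted p = 0.769).

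Of 33 other ESCRT genes 1 stood higher and 2 lower. Usp8, a deubiquitinase of endosomes, differed by −0.14 ± 0.05 (SE), and Chmp4c, under the negative control median, by 0.12 ± 0.053. Of the 13 corepressor and zinc finger repressor genes 0 did. Zfp568, under the negative control median, differed by −0.11 ± 0.054 and Cbx3, a heterochromatin protein gene, by 0.12 ± 0.071. In the Frmd4a list 2 of 22 stood higher and 3 lower. The smallest p-values belonged to the related genes Frmd3, at −0.32 ± 0.096, and Frmd6, at 0.36 ± 0.12, which differed in opposite directions.

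Each gene was set beside 11368 genes with a named symbol and a mean at or above the negative control median, by Pearson's r of the log2 signal over all 18 arrays. These values describe likeness and contain the group differences. Ist1 and Zfp612 were each other's closest match, at r = 0.88. The second for Ist1 was Tecpr1, an autophagy gene, at 0.70, and for Zfp612 it was Spry3 at 0.69. Mapk4 was closest to Lmtk2, a kinase gene, and Unc13a, which primes synaptic vesicles, at 0.94 each, and most opposed to Ccdc50 at −0.94. Far2 was closest to Ptprn, a dense-core vesicle protein, at 0.87, and to St3gal5, which makes the ganglioside GM3, at 0.86. It was most opposed to Tlr12 at −0.83. Zdhhc2 was closest to Allc at 0.88 and Tyw5 at 0.86, and most opposed to Manba, a lysosomal mannosidase gene, at −0.80. Dusp18 was closest to Cdon and Crtc2, a CREB coactivator, at 0.79 each, and most opposed to Garnl3 at −0.86. Frmd4a was closest to Nkain1 at 0.88 and Tmem145 at 0.87, and most opposed to Calb1, the gene of calbindin, at −0.86. The most opposed genes to Ist1 and Zfp612 were Zfp148 at −0.77 and Exosc3 at −0.68.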

How the data were processed

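Biotin-labelled cDNA from accumbens RNA was hybridised to Affymetrix whole-transcript arrays, per the labels' protocols. The submitters' processing notes name Affymetrix Expression Console, and the authors' deposited values are treated as log2, given their range of 2.06 to 19.93. The sources used here do not state summarisation or normalization. Of 70580 features, 1738 were controls, 23446 had 1 gene symbol, 505 several and 44891 none. Symbols were updated by gene number (22077 matched) to RefSeq GRCr8, used also for gene order and promoters. The feature with the highest mean was kept for each gene, and no low-value filter was applied.

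One limma fit (version 3.58.1, R 4.3.3) used all 18 arrays with group as the only term and Benjamini-Hochberg adjustment. Its calculation was tried on simulated data of independent noise with known changes added, which does not test how well it suits these arrays. Permutations and figures used Python 3.11.15, numpy 2.4.6 and matplotlib 3.10.9. The members, the lists and the tests were chosen with earlier results of these data known. Besides the members, the text names 2 genes of each family list by smallest p, the 2 most alike and the most opposed gene, the nearest measured neighbours and the genes between Ist1 and Zfp612, added after their values were seen. The labels do not say that a shared replicate number marks a shared litter or batch. Fst and Scgb1b24 were named after their values were seen. Alternatives were other normalizations, features, filters, variance models, weights, covariates and left-out arrays.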

Additional observations from a re-analysis of the deposited data

Results flagged for a closer look

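Control replicate 3 stood apart from the other 5 controls in 2 of the 7 genes, where the ratio of its gap to the whole range was above Dixon's critical value. The other 5 genes' controls, and the resistant and sensitive arrays of all 7 genes, had no such array among the 21 sets of 6 examined. Chance alone gives about 1 such array in 20 sets. For Ist1 it read 10.19, against 9.69 for the next highest control (ratio 0.73). For Zfp612 it read 9.47, against 9.15 (ratio 0.64). Both values concern the same array and a pair of genes that varied together. In both genes it lay within the range of the shock-sensitive arrays. It also had the highest mean of the endothelial markers, 9.52.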

How the results depend on the processing

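The differences between resistant and sensitive rats kept their direction for all 7 genes under the 27 alternatives run for each. They moved by more than 1.5 times for Mapk4 with the marker covariate (0.58) and for Frmd4a with the mean of its features (−0.14). For both shock groups against controls, 0 of the 7 genes passed under any of the 27, with adjusted p-values of 0.141 to 0.77 for Far2 and 0.168 to 0.898 for Ist1, whose difference was 0.32 without control replicate 3. The sign turned for Frmd4a with median centring (−0.027), without control replicate 1 and shock-sensitive replicate 4 together, chosen after seeing the data (−0.011), and with single arrays left out (−0.016 to 0.024). It turned for Mapk4 with array weights (−0.037) and with single arrays left out (−0.052 to 0.24). The causes were not tested.

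Over all genes, that comparison had 1 gene past the threshold. There were 0 with quantile normalization, median centring, genes at or above the negative control median or without those 2 arrays, 2 with trend and robust variance or all features, and 3 with array weights or the marker covariate. Leaving out single arrays gave 0 to 2. Between resistant and sensitive rats the count was 0, and 1 with median centring (Fst). With single arrays left out it was 0 to 1: Ist1 passed without control replicate 3 (adjusted p = 0.0365) and Fst without shock-resistant replicate 4 (0.0154). As the members were chosen on that comparison, this is no test of Ist1. Other family genes past it stayed at 0 in all 27.

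Arrays with the same replicate number correlated in their deviations at −0.31 to 0.29, with 5 of 18 pairs above 0.1. Of pairs from different groups with different numbers, 25 of 90 were above 0.1. The numbers were therefore not taken as pairs. With a replicate block the counts were 0 of 7 members, 1 gene against controls (Scgb1b24 in place of C1h16orf92), 0 genes between resistant and sensitive rats and 0 other family genes.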
